A study of Mus musculus with 9 samples.

Results

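The liver clock genes Arntl, Npas2, Clock, Per1, Per2, Per3, Cry1, Nr1d1, Dbp and Ciart were followed across the 3 groups of the study. These 10 genes were taken by their symbol from a table of 21873 genes, and all 10 were above 0 in every library and passed the filter on low values. Liver RNA was sequenced from 9 male C57BL/6 mice, 3 in each group. The control group received saline intraperitoneally for 8 weeks, the TAA group received thioacetamide, a compound that damages hepatocytes, by the same route for 8 weeks, and the recovery group received the same 8 weeks of thioacetamide followed by 8 weeks without injections. Control and TAA livers were collected 72 h after the last injection. With mice that were 8 weeks old when obtained, collection came at about 16 weeks of age in the control and TAA groups and about 24 weeks in the recovery group, and no older saline group was analysed here. The mice were kept under alternating light and dark with free food, and the hour of collection was not given in the sources used here. The hour and the treatment therefore cannot be told apart in any value that follows. In comparisons with the recovery group the age cannot be told apart from them either.

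In mammalian cells, the circadian clock is a loop of transcription. ARNTL (also known as BMAL1) pairs with CLOCK or with its paralog NPAS2 and activates genes through E-box elements, among them the Per and Cry genes, whose proteins return to repress the pair. NR1D1 (REV-ERB alpha), which is itself activated by the pair, represses Arntl, Npas2, Clock and Cry1, and DBP carries the rhythm to output genes through D-box elements. In mouse liver, Arntl, Npas2, Clock and Cry1 mRNA is known to peak around the end of the dark phase. Nr1d1, Dbp, Ciart, Per1, Per2 and Per3 mRNA peaks later, from the middle of the light phase to the early dark phase. The former are called Arntl-phase genes here (4 genes) and the latter Dbp-phase genes (6 genes).

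The promoters of 5 members are shown because the stretch before their start carries, or lacks, exact letter strings of the short elements through which this loop is read. Promoter windows were found in RefSeq (GRCm38.p6) for 9 of the 10 genes (all but Per2), and in the window nearest to each gene of the table the 250 bases before the annotated start were searched on both strands for the E-box CACGTG, the related E'-box CACGTT, the half-sites AGGTCA and GGGTCA bound by NR1D1 and ROR proteins, the D-box TTANGTAA and the cyclic AMP response element TGACGTCA. Capitals mark the matches, which did not overlap each other in these windows.
Ciart, chr3:95882229-95882478, minus strand: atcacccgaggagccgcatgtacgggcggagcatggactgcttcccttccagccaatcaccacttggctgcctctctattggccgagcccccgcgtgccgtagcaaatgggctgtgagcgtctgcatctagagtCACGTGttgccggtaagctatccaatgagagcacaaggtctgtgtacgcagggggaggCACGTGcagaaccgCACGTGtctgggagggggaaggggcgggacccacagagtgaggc
Per3, chr4:151044666-151044915, minus strand: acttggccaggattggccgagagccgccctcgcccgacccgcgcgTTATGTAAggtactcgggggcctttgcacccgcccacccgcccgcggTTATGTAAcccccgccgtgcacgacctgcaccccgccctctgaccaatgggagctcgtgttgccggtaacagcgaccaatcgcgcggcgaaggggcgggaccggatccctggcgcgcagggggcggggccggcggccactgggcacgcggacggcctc
Cry1, chr10:85185055-85185304, minus strand: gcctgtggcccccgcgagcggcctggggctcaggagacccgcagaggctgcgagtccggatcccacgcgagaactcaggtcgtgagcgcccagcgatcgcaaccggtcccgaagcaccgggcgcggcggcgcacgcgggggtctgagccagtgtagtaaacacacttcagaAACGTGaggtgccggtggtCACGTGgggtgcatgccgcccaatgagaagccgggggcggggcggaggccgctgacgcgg
Nr1d1, chr11:98775378-98775627, minus strand: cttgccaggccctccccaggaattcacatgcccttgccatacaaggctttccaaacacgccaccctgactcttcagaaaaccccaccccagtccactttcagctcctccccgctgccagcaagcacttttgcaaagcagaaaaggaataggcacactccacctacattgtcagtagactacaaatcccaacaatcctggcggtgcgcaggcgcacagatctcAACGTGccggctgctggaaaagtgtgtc
Arntl, chr7:113207215-113207464, plus strand: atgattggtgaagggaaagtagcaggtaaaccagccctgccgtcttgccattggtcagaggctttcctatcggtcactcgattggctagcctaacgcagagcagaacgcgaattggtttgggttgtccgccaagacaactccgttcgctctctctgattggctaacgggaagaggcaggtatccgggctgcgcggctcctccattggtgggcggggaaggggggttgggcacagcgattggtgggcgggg
The Ciart window held 3 E-boxes, which begin at positions -116, -58 and -44 from the start. In the Per3 window there were 2 D-boxes, beginning at -205 and -158. The Cry1 window held an E-box and an E'-box, the Nr1d1 window an E'-box, and the Arntl window none of these letter strings. Of the windows not shown, that of Per1 held an E-box at -166 and a half-site at -137, and those of Npas2, Clock and Dbp held none. Of all 32851 promoter windows, 6.02% held the E-box, 3.85% the E'-box, 14.0% and 11.6% the half-sites, 2.06% the D-box and 1.55% the cyclic AMP response element. A match, or the lack of one, describes these exact letters in the 250 bases searched only. Elements after the start, farther away or with other letters were not searched for.

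The authors deposited FPKM, that is, fragments counted per gene (mm10) and divided by the length of the gene and by the mapped fragments of the library. Depth, inferred from the spacing of low values, was 26.8 to 40.7 M fragments per library. FPKM were divided by a factor per library (the median ratio to the geometric mean of the libraries over genes above 0 in all libraries), which was 0.827 to 0.878 for control, 1.29 to 1.38 for TAA and 0.893 to 0.907 for recovery libraries. Relative to the control libraries, this scaling lowered TAA libraries by a log2 value of 0.64 and recovery libraries by 0.08. Levels below are scaled FPKM, and differences are on the scale of log2(scaled FPKM + 0.1), where the added 0.1 draws the differences of low genes towards 0. Hepatocyte markers were abundant in every library, with a summed level over 6 genes of 37597 to 41422 in the control, 22170 to 29290 in the TAA and 46514 to 49188 in the recovery group. Summed levels of 7 stellate cell markers were 34.1 to 41.4, 234 to 316 and 32.3 to 44.7, and those of 5 biliary markers 15.7 to 20.9, 295 to 442 and 27.9 to 38.4, respectively. The library TAA 3 had skeletal muscle RNA, with a summed level of 40.9 over 8 muscle markers against at most 0.0746 in the other libraries. In RNA of whole liver, fewer cells of a type and less RNA per cell cannot be told apart, and the part of cell composition in the values below was not tested.

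The 10 genes are textbook clock genes, but the set was chosen by an earlier look at the differences of Arntl, Npas2, Dbp and Ciart between the recovery and control groups, with results of all 3 comparisons known. Their levels and differences are therefore given as a description, without a test.

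Arntl (ENSMUSG00000055116, chr7:113207465-113314126, plus strand, mm10 here and below) encodes the obligatory partner of CLOCK and NPAS2. In the control mice its level was 0.424, 0.971 and 0.635, in the TAA mice 1.54, 1.79 and 1.85, and in the recovery mice 3.98, 6.11 and 6.64. The 3 groups did not overlap, and the recovery mean was 8.24 times the control mean. The log2 difference was 1.29 (SE 0.26) between the TAA and control groups, 2.90 (SE 0.31) between the recovery and control groups and 1.61 (SE 0.20) between the recovery and TAA groups.

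Npas2 (ENSMUSG00000026077, chr1:39193731-39363236, plus strand), the paralog that can replace Clock, followed the same order at a lower level. It was 0.0104, 0.0465 and 0.0770 in the control mice, 0.154, 0.309 and 0.269 in the TAA mice and 0.703, 1.71 and 0.960 in the recovery mice, again with no overlap between groups. The control values rest on few molecules, an estimated 1.10, 6.77 and 10.6 fragments per library, against 38.5 to 76.0 in the TAA and 106 to 299 in the recovery group. The log2 differences of 1.25 (SE 0.30), 3.03 (SE 0.34) and 1.78 (SE 0.33), in the same order as for Arntl, depended on the added value. Between the recovery and control groups the difference was 4.51 with 0.01 added and 0.997 with 1 added. Of the other members, Npas2 was nearest to Arntl in profile over the 9 mice, with a root mean square difference of 0.32 on the log2 scale after each gene was centred on its own mean.

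Clock (ENSMUSG00000029238, chr5:76209868-76304792, minus strand) and Cry1 (ENSMUSG00000020038, chr10:85131700-85185064, minus strand), the other Arntl-phase genes, differed less. Clock was 11.9, 12.5 and 11.7 in the control mice, 9.83, 12.5 and 9.81 in the TAA mice and 18.2, 19.8 and 18.7 in the recovery mice. Its recovery values lay above all others and its TAA and control values overlapped, with log2 differences of 0.65 (SE 0.07) between the recovery and control groups and -0.17 (SE 0.12, or 0.46 with FPKM as deposited) between the TAA and control groups. Cry1, a repressor of the ARNTL pair, was 3.02, 2.86 and 2.44 in the control mice, 3.46, 3.61 and 3.68 in the TAA mice and 2.88, 3.71 and 3.05 in the recovery mice. The recovery range of Cry1 spanned most of the range of the other groups, and its difference between the recovery and control groups was 0.20 (SE 0.15). The TAA values of Cry1 were all above the control values, by 0.36 (SE 0.12).

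Dbp (ENSMUSG00000059824, chr7:45705088-45710203, plus strand), the PAR bZIP activator of output genes, was the most abundant member in the control group. Its level was 55.6, 47.1 and 55.4 in the control mice, 35.2, 26.3 and 32.4 in the TAA mice and 10.3, 5.92 and 2.85 in the recovery mice. The groups did not overlap, and the control mean was 8.30 times the recovery mean. The log2 difference between the recovery and control groups was -3.21 (SE 0.42), between the recovery and TAA groups -2.45 (SE 0.40) and between the TAA and control groups -0.75 (SE 0.13, or -0.12 with FPKM as deposited). The recovery mouse with the highest Dbp had the lowest Arntl of its group, and the one with the lowest Dbp had the highest Arntl.

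**Figure D1:**
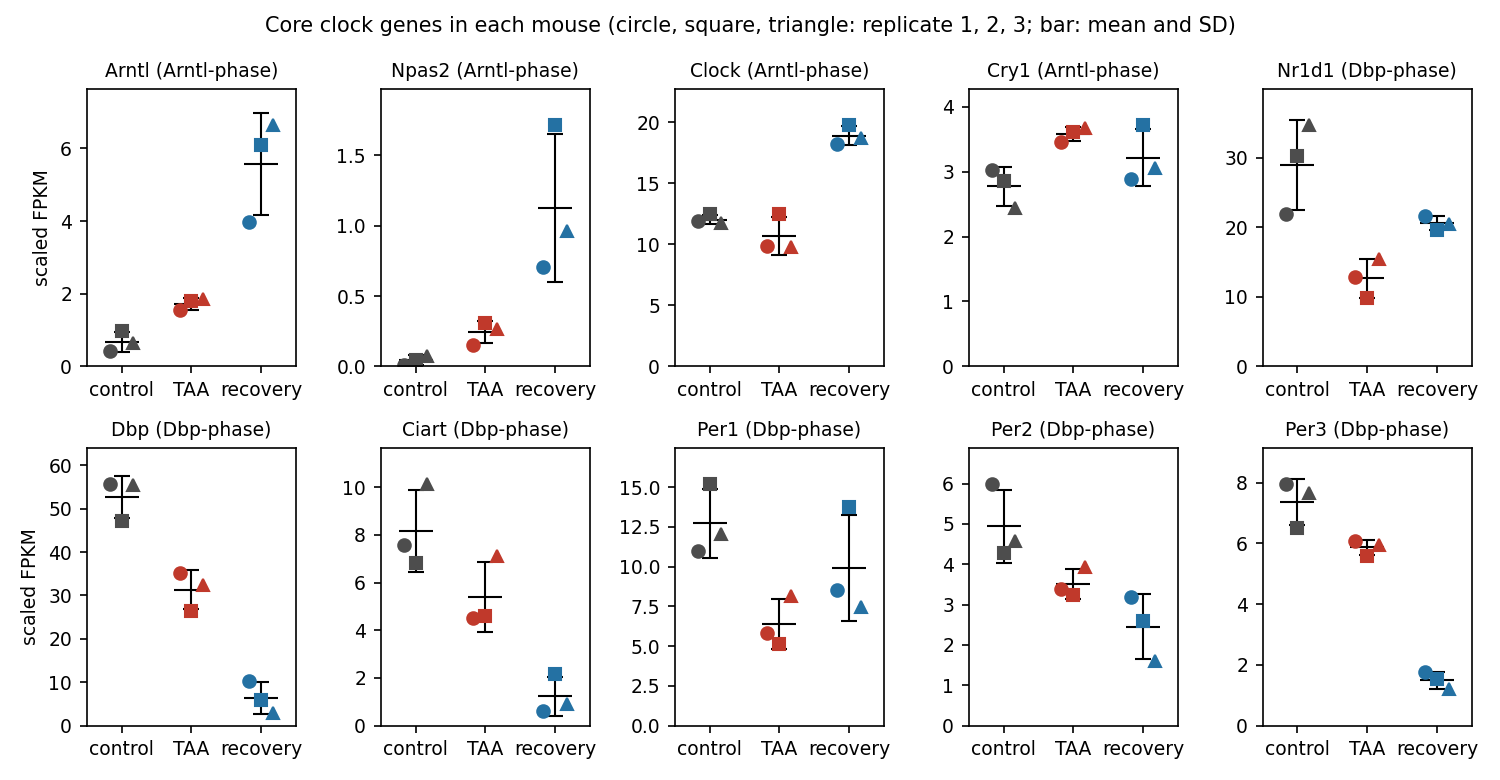
Scaled FPKM (vertical axis, linear from 0) of the 10 core clock genes in each mouse of the control, TAA and recovery groups, with 1 symbol per mouse and bars for the mean and SD (n = 3). Arntl and Npas2 were highest and Dbp, Ciart and Per3 lowest in the recovery mice, while Nr1d1 and Per1 were lowest in the TAA mice on average.

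Ciart (ENSMUSG00000038550, chr3:95878503-95882251, minus strand), a repressor of the ARNTL pair, and Per3 (ENSMUSG00000028957, chr4:151003652-151044665, minus strand) had the same order of scaled group means as Dbp, although with FPKM as deposited their log2 differences between the TAA and control groups were 0.03 and 0.31. Ciart was 7.55, 6.82 and 10.1 in the control mice, 4.52, 4.59 and 7.10 in the TAA mice and 0.614, 2.16 and 0.926 in the recovery mice. Its recovery values lay below all others, whereas TAA 3 reached into the control range. Per3 was 7.94, 6.50 and 7.67 in the control mice, 6.08, 5.60 and 5.93 in the TAA mice and 1.75, 1.52 and 1.19 in the recovery mice, with no overlap. The recovery mice differed from the control mice by -2.78 (SE 0.42) in Ciart and -2.24 (SE 0.17) in Per3, and from the TAA mice by -2.19 (SE 0.40) and -1.92 (SE 0.15). The TAA and control groups differed by -0.60 (SE 0.22) in Ciart and -0.32 (SE 0.11) in Per3.

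Per1 (ENSMUSG00000020893, chr11:69095217-69109960, plus strand) and Per2 (ENSMUSG00000055866, chr1:91415982-91459324, minus strand) encode repressors that close the loop, and Per1 also responds to hormones and cyclic AMP. Per1 was 11.0, 15.2 and 12.0 in the control mice, 5.85, 5.13 and 8.13 in the TAA mice and 8.55, 13.7 and 7.47 in the recovery mice. The recovery range of Per1 overlapped both other groups. In Per1 the recovery group differed by -0.39 (SE 0.24) from the control group and by 0.61 (SE 0.25, or 0.05 with FPKM as deposited) from the TAA group. Per2 was 5.98, 4.28 and 4.58 in the control mice, 3.38, 3.24 and 3.94 in the TAA mice and 3.19, 2.59 and 1.59 in the recovery mice. The groups did not overlap for Per2, although the highest recovery and the lowest TAA mouse were close, and the recovery group differed from the control group by -1.02 (SE 0.27). The TAA group differed from the control group by -0.47 in Per2 (SE 0.16, or 0.15 with FPKM as deposited).

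Nr1d1 (ENSMUSG00000020889, chr11:98767932-98775333, minus strand), the repressor of the Arntl-phase genes, was lowest in scaled FPKM in the TAA group and not in the recovery group. It was 22.0, 30.3 and 34.7 in the control mice, 12.8, 9.81 and 15.4 in the TAA mice and 21.6, 19.6 and 20.4 in the recovery mice. The highest recovery mouse was just under the lowest control mouse, and the lowest recovery mouse was above the highest TAA mouse. The differences were -1.18 (SE 0.21) between the TAA and control groups, -0.47 (SE 0.17) between the recovery and control groups and 0.72 (SE 0.16) between the recovery and TAA groups. With FPKM as deposited they were -0.55, -0.39 and 0.16, so the distance between the recovery and TAA groups depended on the scaling.

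The sizes of the differences varied among the Dbp-phase genes, and this variation was not tested. Between the TAA and control groups, Nr1d1 and Per1 had the largest differences among the 6 (-1.18 and -1.0) and Per3 the smallest (-0.32, or 0.31 with FPKM as deposited). In the recovery against the control group, which is compared with the same control mice, Dbp, Ciart and Per3 had the largest (-3.21, -2.78 and -2.24) and Nr1d1 and Per1 the smallest (-0.47 and -0.39). Averaged over the 6 genes for each mouse, the log2 level relative to the control mean was -0.737, -0.927 and -0.499 in the TAA mice and -1.57, -1.41 and -2.08 in the recovery mice. For the 4 Arntl-phase genes the averages were 0.50, 0.825 and 0.719 in the TAA mice and 1.40, 1.97 and 1.71 in the recovery mice. The averages of the TAA mice depended on the scaling. With FPKM as deposited, the TAA and control groups differed by -0.55 (Nr1d1) to 0.31 (Per3) in the Dbp-phase genes. In the Arntl-phase genes they then differed by 0.46 (Clock) to 1.87 (Arntl).

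FPKM are per gene length, so the levels of members could also be ranked within a group. In the control group the order by mean scaled FPKM was Dbp (52.7 ± 4.85, SD, n = 3), Nr1d1 (29.0 ± 6.45), Per1, Clock, Ciart, Per3, Per2, Cry1, Arntl and Npas2. Neighbours in this order overlapped between mice for Per1 and Clock and for Ciart and Per3. In the recovery group Nr1d1 (20.6 ± 1.0) and Clock (18.9 ± 0.786) came first, and Dbp (6.35 ± 3.72) was the fourth, next to Arntl (5.57 ± 1.41), with overlapping ranges. In the TAA group the order was Dbp, Nr1d1, Clock, Per1, Per3, Ciart, Cry1, Per2, Arntl and Npas2, with overlap between Nr1d1 and Clock, among Per1, Per3 and Ciart, and between Cry1 and Per2. In the recovery group Clock overlapped Nr1d1, Per1 overlapped Dbp, and from Cry1 through Per2, Per3 and Ciart to Npas2 each gene overlapped the next. Arntl moved from the ninth place of the control group to the fifth, and Ciart (1.23 ± 0.817) from the fifth to the ninth.

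Ratios of genes within the same mouse carry the same scaling factor in both terms. The log2 ratio of Arntl to Dbp was -6.73, -5.46 and -6.24 in the control mice, -4.43, -3.81 and -4.06 in the TAA mice and -1.34, 0.04 and 1.19 in the recovery mice. These ranges did not overlap, and the recovery mice spread most (SD 1.27, against 0.640 and 0.314 in the control and TAA mice). Arntl to Nr1d1 gave means of -5.26 ± 0.386 (SD, n = 3), -2.79 ± 0.344 and -1.90 ± 0.448 in the control, TAA and recovery groups, and the ranges of the TAA and recovery groups overlapped, since recovery 1 (-2.41) was just below TAA 2 (-2.39). For Npas2 to Clock the means were -6.42 ± 0.349, -5.0 ± 0.275 and -4.04 ± 0.539. With 1 in place of 0.1 added they were -3.64, -3.23 and -3.25, so that the TAA and recovery means were no longer apart.

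**Figure D2:**
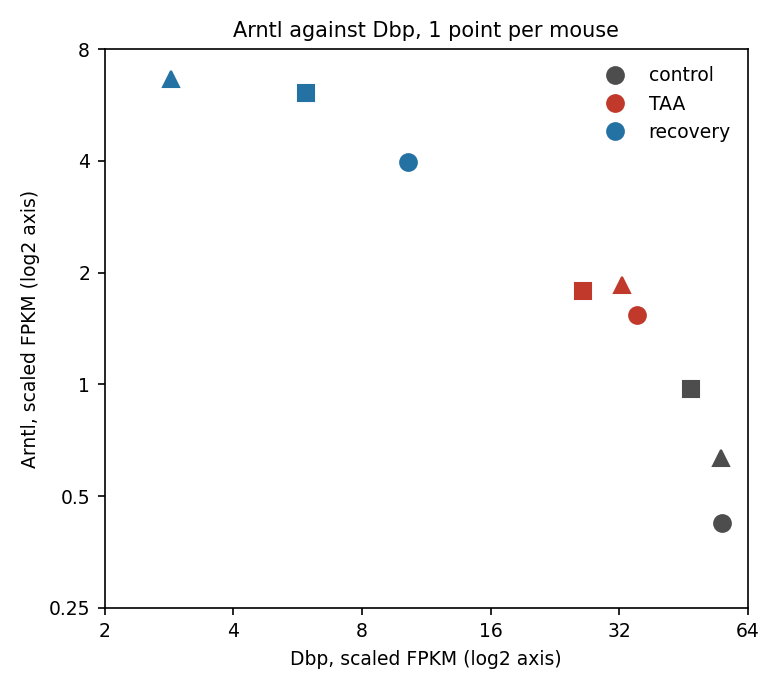
Arntl against Dbp in scaled FPKM (both axes on a log2 scale), with 1 symbol per mouse and a colour per group. The control mice lie at high Dbp and low Arntl, the TAA mice between, and the recovery mice at low Dbp and high Arntl, spread from 2.85 to 10.3 in Dbp.

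By the criteria of the study, an adjusted p under 0.05 and a fold change of at least 2, a gene was called from a limma fit over all 14094 tested genes (mean-variance trend, Benjamini-Hochberg adjustment). Between the TAA and control groups 3 of the 10 members met them, Arntl and Npas2 as higher and Nr1d1 as lower, where 25.0% of all tested genes did (17.0% as higher and 8.02% as lower). In recovery against TAA 5 of the 10 met them, Arntl, Npas2, Dbp, Ciart and Per3, where 21.4% of all tested genes did (7.12% as higher and 14.3% as lower). The same 5 met them between the recovery and control groups, where 0.993% of all tested genes did (0.582% as higher and 0.412% as lower). Nothing is read from these counts, since the genes had been picked with such calls known. Groups did not overlap for 8 of the 10 members in each comparison, against 63.6%, 60.3% and 30.2% of all tested genes, in the order given here. The calls between recovery and control fell whichever mouse was left out. They fell from 5 members to 3 without control 1, 2 without control 2 and 1 without control 3. Without recovery 1, 2 and 3 they were 4, 3 and 2. Each such fit has fewer mice, and the calls over all genes also fell, from 140 to between 32 and 106. The part of fewer mice and that of the mouse left out were not separated. Over the 6 fits that left out 1 mouse, the differences ranged from 2.64 to 3.16 for Arntl, from -3.64 to -2.74 for Dbp and from -2.36 to -2.10 for Per3.

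Directions between the TAA and control groups also depended on the scaling. With FPKM as deposited, the differences were 1.87 for Arntl, 1.60 for Npas2, -0.55 for Nr1d1, -0.37 for Per1 and -0.12 for Dbp. Those of Ciart (0.03), Per2 (0.15), Per3 (0.31) and Clock (0.46) changed sign. With quantile normalization Arntl was at 0.69, Npas2 at 0.45, Nr1d1 at -0.91 and Clock at 0.02. Under both scalings the differences between the recovery and control groups kept their signs for all 10 genes. Without TAA 3, the library with muscle RNA, the count of called members between the TAA and control groups was 4 in place of 3.

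**Figure D3:**
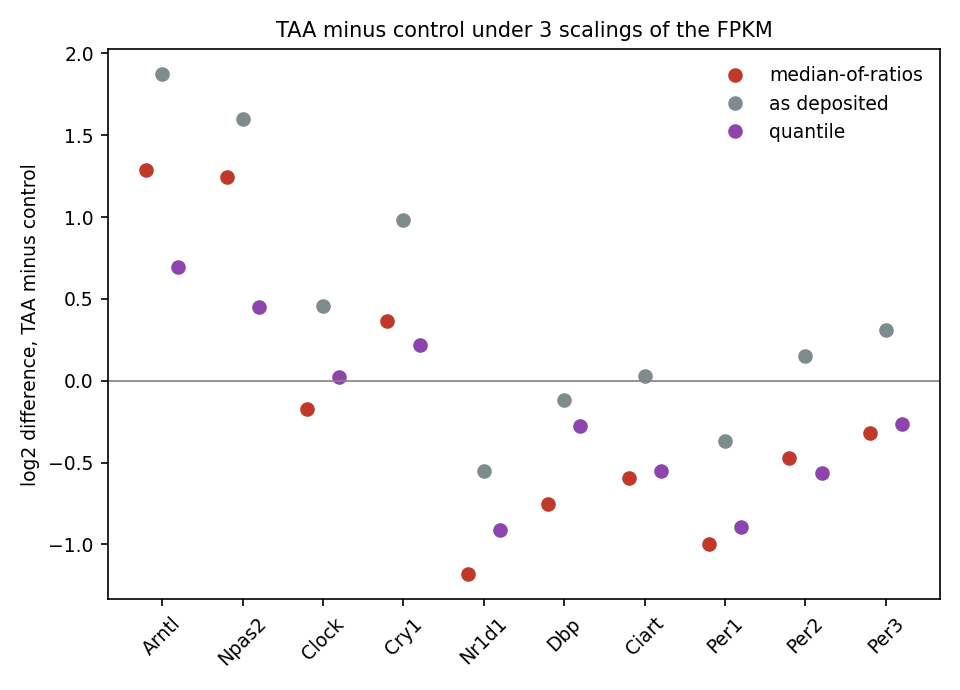
Log2 difference between the TAA and control group means (vertical axis) of the 10 core clock genes under 3 scalings: median-of-ratios factors, FPKM as deposited, and quantile normalization. Arntl, Npas2 and Cry1 lie above 0 and Nr1d1, Dbp and Per1 below 0 under each scaling, while Ciart, Per2, Per3 and Clock lie on both sides.

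Some members share exon bases with a gene on the other strand, and the library kit was not one that marks strand as far as the methods state. Dbp shares 539 exon bases (18.0% of its exons) with Sphk2 and Nr1d1 shares 263 (8.55%) with Thra. Sphk2 had means of 14.6, 5.88 and 20.2 in the control, TAA and recovery groups, and was thus highest where Dbp was lowest. Thra had means of 5.77, 4.66 and 7.41.

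A further 17 genes of the loop were listed from textbook knowledge, but with earlier results of these data known, in which Usp2 had been named. The counts below include Usp2, which was therefore not an independent pick. Of the 17 genes, 16 were tested, since Rorb was at 0 in every library. Between the recovery and control groups Usp2, Bhlhe41, Tef and Nr1d2 fell, 4 of these 16, and 0 rose (limma), against 0.993% of all tested genes called. At an unadjusted p under 0.05, 9 of the 16 were lower and 0 higher, against 11.7% and 11.3% of all tested genes. The median log2 difference of the 16 was -0.44, and that of all tested genes 0.01. Between the TAA and control groups 4 fell (Bhlhe41, Hlf, Tef and Usp2) and Arntl2 rose, and between the recovery and TAA groups Hlf and Nfil3 rose and Arntl2 and Usp2 fell, where 25.0% and 21.4% of all tested genes were called. Without control 1 or without TAA 2, 3 of the 16 were called between the TAA and control groups. For recovery against control 2 were called without control 3 and 1, Usp2, without recovery 2. These calls depended on the scaling. With FPKM as deposited, Arntl2 and Csnk1e were called as higher between the TAA and control groups and 0 of the 16 as lower, since the differences of Bhlhe41, Hlf, Tef and Usp2 were -0.95, -0.71, -0.39 and -0.38. Also as deposited, 6 of the 16 were called as lower between the recovery and TAA groups and 0 as higher, with Hlf at 0.57 and Nfil3 at 0.70. Csnk1d, a kinase of the PER proteins, stayed within 17.4 to 20.2 in scaled FPKM in all 9 libraries. Its difference between the TAA and control groups was 0.02, but 0.65 with FPKM as deposited and 0.33 with quantile normalization.

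Paralogs of the members could be set beside them. Nr1d2, which encodes REV-ERB beta, was 47.4, 42.0 and 42.2 in the control mice, 33.6, 33.3 and 25.8 in the TAA mice and 22.9, 20.3 and 18.5 in the recovery mice. Unlike Nr1d1, it was lowest in the recovery group, where it fell by 1.09 on the log2 scale from the control group (SE 0.10, adjusted p = 0.0105, limma, 3 of 3 mice). Cry2 was 13.8, 16.9 and 15.3 in the control mice, 8.48, 8.77 and 8.91 in the TAA mice and 8.27, 8.53 and 7.34 in the recovery mice. Its differences from the control group, -0.80 (adjusted p = 4.20e-04, limma) and -0.92 (adjusted p = 0.0161), did not reach a fold change of 2. With FPKM as deposited, Cry2 differed between the TAA and control groups by -0.17 (adjusted p = 0.203, limma).

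Tef and Hlf belong with Dbp to the PAR bZIP family. Tef fell by 1.03 in the TAA group (SE 0.11, adjusted p = 2.42e-04, limma) and by 1.57 in the recovery group (SE 0.16, adjusted p = 0.0138), both against the control group, with means of 73.5, 35.9 and 25.0 in the control, TAA and recovery groups. Tef lost its call between the TAA and control groups with FPKM as deposited (-0.39) and with quantile normalization (-0.52), and its call between the recovery and control groups was lost in 2 of 6 fits that left out 1 mouse, with adjusted p up to 0.0592. Hlf had means of 8.95, 3.55 and 7.71, and its difference between the recovery and control groups was -0.21 (SE 0.10, adjusted p = 0.273). Dbp, Tef and Hlf therefore stood at -3.21, -1.57 and -0.21 against the same control mice. Nfil3, which represses through the same D-box, was 7.34, 7.98 and 15.5 in the recovery mice and 6.11 to 6.89 in the control mice. It rose by 1.25 from the TAA to the recovery group (adjusted p = 0.00562), and 0.55 separated the recovery and control groups (adjusted p = 0.291).

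Arntl2, the paralog of Arntl, had another order of groups. It was 0.0527, 0.188 and 0.372 in the control mice, 0.882, 1.22 and 1.12 in the TAA mice and 0.268, 0.195 and 0.263 in the recovery mice. Arntl2 rose by 2.08 in the TAA group (SE 0.39, adjusted p = 0.00322, limma) and fell by 1.78 from the TAA to the recovery mice (SE 0.20, adjusted p = 2.86e-04). Recovery and control mice overlapped in Arntl2, in contrast to Arntl. Bhlhe41, an E-box repressor, fell by 1.52 in the TAA group and by 1.67 in the recovery group, both against the control group (adjusted p = 0.00167 and 0.0382). The call of Bhlhe41 between the recovery and control groups was lost in all 6 fits that left out 1 mouse, with adjusted p up to 0.110. Usp2, a deubiquitinase with rhythmic mRNA, fell by 1.01 and 2.65, the former as -0.38 with FPKM as deposited and without a call. Since Usp2 had been named in earlier results of these data, no p is given for it. Its level was 15.7 to 19.2 in the control, 8.34 to 9.71 in the TAA and 2.08 to 3.22 in the recovery mice.

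**Figure D4:**
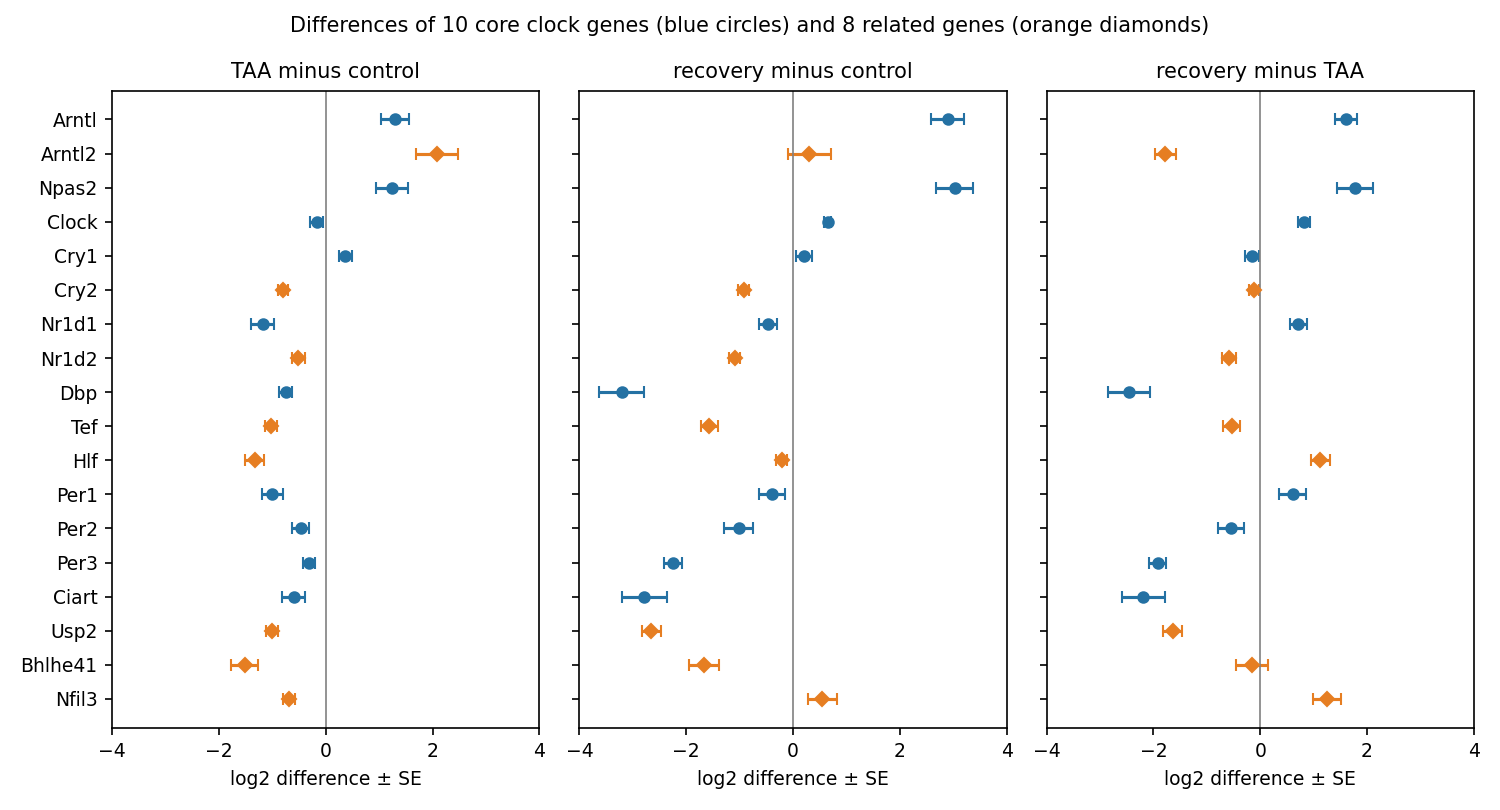
Log2 differences (horizontal axis, with SE) of the 10 core clock genes (blue circles) and 8 related genes (orange diamonds) for TAA minus control, recovery minus control and recovery minus TAA. In the middle panel Arntl and Npas2 lie near 3 and Dbp, Ciart, Usp2 and Per3 between -3.21 and -2.24.

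As outputs of the loop, 11 genes known to be rhythmic in liver were listed, and all 11 were tested. In the TAA against the control group Cdkn1a rose and Gys2, Insig2 and Elovl3 fell, and from the TAA to the recovery group Insig2 and Elovl3 rose and Wee1 and Cdkn1a fell, 4 of 11 each, against 25.0% and 21.4% of all tested genes. Between the TAA and control groups, Insig2 was at -0.73 with FPKM as deposited and -0.77 with quantile normalization, short of a fold change of 2. Cdkn1a, Gys2 and Elovl3 stayed past it. Between the recovery and control groups Insig2, Elovl3 and Cdkn1a rose and Wee1, Alas1 and Gys2 fell, against 0.993% of all tested genes. Wee1, a cell cycle kinase activated through E-boxes, was 7.51, 5.44 and 5.50 in the control mice, 8.07, 7.0 and 6.38 in the TAA mice and 1.52, 1.82 and 1.16 in the recovery mice. It fell by 1.97 (SE 0.20, adjusted p = 0.0138, limma) from the control group and by 2.19 (SE 0.18, adjusted p = 5.90e-05) from the TAA group, and its TAA and control ranges overlapped.

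Insig2 and Elovl3 are repressed by NR1D1 in liver. Insig2, a sensor of sterols, was 88.9, 135 and 106 in the control mice, 41.9, 52.5 and 33.3 in the TAA mice and 287, 383 and 425 in the recovery mice, a rise of 1.73 against the control group (SE 0.20, adjusted p = 0.0162, limma). Elovl3, a fatty acid elongase, was 55.3 to 81.7 in the control, 0.0924 to 0.104 in the TAA and 138 to 219 in the recovery mice, a rise of 1.27 (SE 0.21, adjusted p = 0.0398). The call of Elovl3 was lost in each fit that left out 1 of the 6 mice, with adjusted p up to 0.108. Cdkn1a, which also responds to DNA damage, rose by 3.81 (SE 0.28, adjusted p = 0.00776), with 0.870 to 1.04 in the control, 27.2 to 37.8 in the TAA and 9.47 to 20.3 in the recovery mice.

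Gys2, the liver glycogen synthase, fell by 1.32 in the recovery group against the control group (SE 0.09, adjusted p = 0.00661, limma) and Alas1, which starts haem synthesis, by 1.02 (SE 0.13, adjusted p = 0.0194). In the TAA mice they were at 26.9 to 38.2 for Gys2 and 97.0 to 137 for Alas1, against 129 to 153 and 203 to 278 in the control mice. The calls of Cdkn1a and Gys2 were kept in all 6 fits that left out 1 mouse. That of Wee1 was kept in 5 of these fits, that of Insig2 in 3, that of Alas1 in 1 and that of Elovl3 in 0. Alas1 was at -0.94 with FPKM as deposited and -0.90 with quantile normalization, short of a fold change of 2. The adjusted p over all fits reached 0.0571 for Wee1, 0.0791 for Insig2 and 0.0823 for Alas1. Nampt, Noct, Por and Cyp7a1 were not called between these groups.

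**Figure D5:**
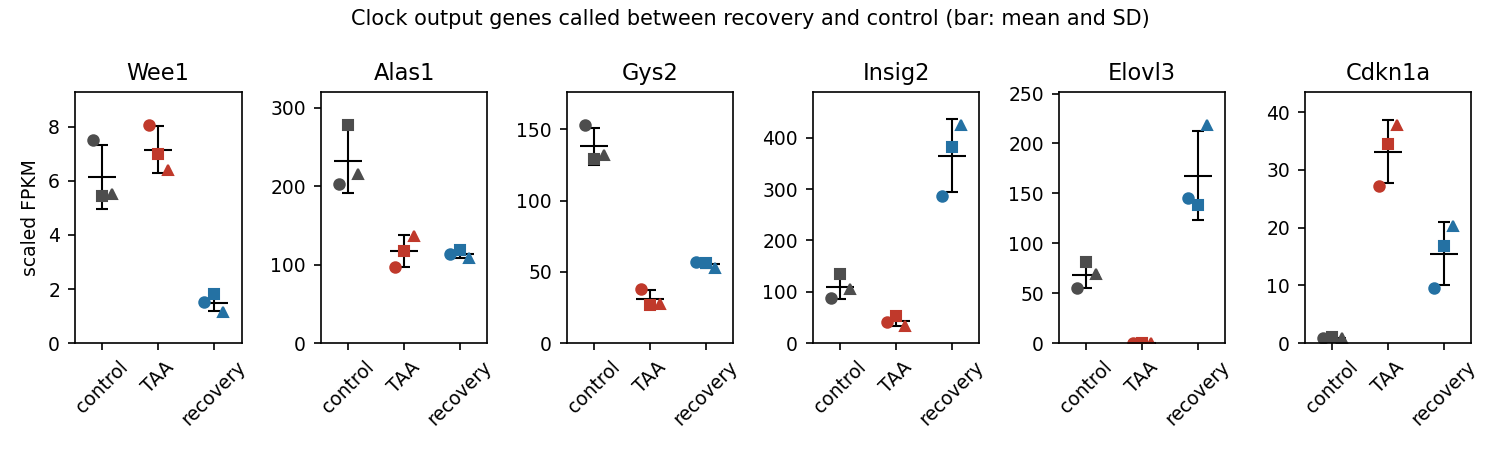
Scaled FPKM (vertical axis, linear from 0) of the 6 output genes called between the recovery and control groups, with 1 symbol per mouse and bars for the mean and SD (n = 3). Wee1 was lowest in the recovery mice, at 1.16 to 1.82, and Insig2 highest, at 287 to 425.

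Genes that respond to body temperature, stress hormones and feeding can move clock genes as well, and 17 of them were listed. Of the 2 cold-induced, 6 heat shock, 5 glucocorticoid and 4 feeding genes, 0 were called between the recovery and control groups (limma), against 0.993% of all tested genes. Of all 17, 5 had an unadjusted p under 0.05, against 23.0% of all tested genes, and Hspa8, a heat shock gene, was the 1 with an adjusted p under 0.05. Between the TAA and control groups, Srebf1, which rises with feeding, was called as higher, and Pck1, which rises with fasting, the glucocorticoid target Tat and Hspa8 as lower. Srebf1 fell and Pck1 and Tat rose from the TAA to the recovery group, and the part of these cues in the clock gene values was not tested. Also from the TAA to the recovery group, Cirbp, a cold-induced RNA-binding protein, rose by 1.5 (SE 0.11, adjusted p = 3.35e-05), with 6.13 to 13.6 in the control, 5.06 to 6.25 in the TAA and 15.4 to 16.7 in the recovery mice. With FPKM as deposited this rise of Cirbp was 0.95, short of a fold change of 2. Between the TAA and control groups, Hspa8 was at -0.56 as deposited and -0.02 with quantile normalization, and Tat at -1.01 and -0.44. Srebf1 and Pck1 stayed past a fold change of 2 there under both scalings.

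Genes with a profile like that of Arntl or Dbp were sought among 11062 genes outside the members by the root mean square difference of centred log2 levels over the 9 mice. Nearest to Arntl were Slc34a2 (0.335), Lrfn3 (0.505), Clp1 (0.579), Leo1 (0.602) and Rnf144a (0.644). Slc34a2, a sodium-dependent phosphate transporter, was 0.210 to 0.299 in the control, 0.80 to 1.01 in the TAA and 2.96 to 4.75 in the recovery mice. Nearest to Dbp were Usp2 (0.454), Wee1 (0.656), Upp2 (0.670), Maff (0.691) and Serpine2 (0.704). Upp2, a uridine phosphorylase, was 71.8 to 112 in the control, 50.9 to 61.4 in the TAA and 16.9 to 26.9 in the recovery mice. Since these genes were ranked by their likeness over all mice, their values are given here without a test. Wee1 was tested above only as a member of the list of output genes.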

How the data were processed

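Liver RNA-seq of 9 mice was analysed from 1 table of gene-level FPKM, which the authors made from paired reads with HISAT2 2.2.1 and featureCounts 1.5.0-p3 on mm10 (GRCm38), per the submitters' processing notes, and deposited with no further scaling that a source states. FPKM are not counts, so limma 3.58.1 (R 4.3.3) replaced the DESeq2 test of the study: log2(FPKM divided by a median-of-ratios factor + 0.1), a minimum mean FPKM of 0.1, 6 libraries per comparison, moderation with a mean-variance trend, two-sided, Benjamini-Hochberg adjustment over 14094 genes. The SE is that of the moderated fit. The step was tested on simulated data.

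Groups came from the sample labels. The animals are labelled as separate mice, no batch is given, and p-values measure the spread between these 3 mice per group. The comparisons share groups. Depth (26.8 to 40.7 M fragments) was estimated from the spacing of low values, of which 54.7 to 62.4% came out whole within 0.08 of a fragment, so no count test was run. In all, 81 symbols listed more than once or damaged were replaced by identifiers, and 92.7% of loci were identical to GENCODE M21.

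The 10 genes, the lists and the tests were chosen with earlier results of these data known. Genes named are the members, the listed loop, output and cue genes that were called or are paralogs of a member, and the 5 genes nearest in profile to Arntl and to Dbp. The 5 promoters shown were chosen after their matches were seen. Other scalings, pseudocounts, filters, moderation, a fit over all 9 libraries, a replicate block and leaving out each mouse were tried. Promoters are RefSeq sequence of GRCm38.p6. Tables and plots were made with Python 3.11.15, pandas 2.3.3, numpy 2.4.6 and matplotlib 3.10.9. Values of some listed genes are not reported here.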

Additional observations from a re-analysis of the deposited data

How the results depend on the processing

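Leaving out 1 mouse gave 3412 to 3579 genes called between the TAA and control groups (3520 with all mice), 32 to 106 between the recovery and control groups (140), where 32 came without recovery 2, 36 without control 3, 39 without recovery 3 and 51 without control 2, and 2910 to 3135 between the recovery and TAA groups (3017). For the 10 core clock genes the counts were 3 to 4 (3 with all mice), 1 to 4 (5) and 5 to 5 (5), and for the 16 other loop genes 3 to 5 (5), 1 to 3 (4) and 3 to 4 (4), in the same order. With a pseudocount of 1, 1780, 80 and 1460 genes were called in the 3 comparisons, with 1 core clock gene and 2 other loop genes between the TAA and control groups and 2 other loop genes between the recovery and TAA groups. A mean FPKM of at least 1 removed Npas2, Arntl2, Bhlhe41 and Fbxl21. With this filter, 2204 genes and 3 other loop genes were called between the TAA and control groups and 1895 genes between the recovery and TAA groups. Between the recovery and control groups 48 genes and 1 core clock gene were called with no filter beyond a value above 0, 85 genes without a trend and 235 with all 9 libraries in 1 fit. Quantile normalization left 0 of the core clock genes called by limma between the TAA and control groups, and with FPKM as deposited 2 of the other loop genes were called as higher and 0 as lower (1 and 4 with scaling). For recovery against TAA, 0 of them were called as higher and 6 as lower as deposited (2 and 2 with scaling). The split of TAA against control calls was 2389 higher and 1131 lower with scaling and 4382 and 421 as deposited or 1597 and 1311 with quantile normalization. For recovery against control it was 82 and 58 with scaling and 106 and 47 as deposited, and for recovery against TAA 1003 and 2014, against 409 and 3728 as deposited or 1171 and 1407 with quantile normalization. Signs turned for Nr1d2 between TAA and control as deposited (0.12), for Arntl2 between recovery and control without control 1 (-0.12, with up to 0.70 without other mice), and for Bhlhe41 between recovery and TAA with quantile normalization (0.56), without TAA 3 (0.06) and without recovery 3 (0.12), with a lowest value of -0.34 without TAA 2. The cause of these shifts was not tested. Replicate numbers did not pair the mice: same-numbered mice deviated together with correlations of -0.07 to 0.12, and 3 of 18 library and comparison cases correlated best with their own number. With the replicate number as a block, 17 genes, 2 core clock genes and 2 other loop genes were called between the recovery and control groups. Values of the core clock genes moved by less than 1 SD in 410 of 447 alternatives, and those of the other genes kept direction and call in 377 of 444. The former count includes changes of filter, moderation and block and the fit over all 9 libraries, which cannot move these differences. It also includes the fits that left out 1 mouse, which with 3 mice per group cannot move them by 1 SD. The 37 alternatives that moved by more were changes of scaling or pseudocount, so the former count does not measure stability. Estimated fragments limited Npas2 in the control mice.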
